A study of Mus musculus with 12 samples.

Results

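Mouse embryonic stem cells (ESCs) of 2 groups were compared across all expressed genes: the wild type (WT) of the cell line OdG and the first of 2 Etl4 knockout (KO) lines filed under that cell line, called line 1 here. The libraries were found by the column names of the OdG count table, and they are 4 of the 12 libraries of the series, 2 of WT and 2 of line 1. The other 8 libraries, 2 of a second OdG KO line (line 2) and 3 WT and 3 KO libraries of the cell line EG1, were used only where line 1 is set against them. All groups share the C57BL/6 strain background and the cell type, androgenetic haploid ESCs, and the labels give the genotype as Wild type or Etl4 KO and name no treatment. The labels describe neither the edit, the medium and the ploidy at harvest, nor whether line 1 is a single clone. Nor do they say that both libraries of a group were grown apart. The p-values therefore reflect library-to-library spread alone, and that spread may be technical.

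Androgenetic haploid ESCs derive from embryos that hold only the chromosomes of a sperm, and such cells tend to return to the diploid state in culture. Etl4, also called Skt, encodes a large protein with coiled-coil domains that is known for its role in the notochord and the intervertebral disc. The study's title links its loss to a more stable haploid state. Much of what follows concerns the hypoxia-inducible factor (HIF) pathway. In it the prolyl hydroxylases of the Egln family use oxygen to mark HIF alpha subunits, the Vhl ubiquitin ligase then has them degraded, and HIF alpha that escapes pairs with Arnt and switches on genes of glucose uptake, glycolysis and oxygen supply. Mouse ESCs of the naive state are known to use both glycolysis and mitochondrial respiration, and primed cells lean on glycolysis.

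Total counts were 16867301 and 16570870 in WT and 18774032 and 16110028 in line 1, and 17261 to 17553 genes had at least 1 count. Levels are in CPM, the usual unit of a count relative to its library size, and 1 CPM stood for 15.8 to 18.4 counts. They are given as both WT libraries against both line 1 libraries, replicate 1 first. Etl4 itself (mm10 chromosome 2, 19910207 to 20810535) was at 210.4 and 206 against 97.2 and 101 CPM. The KO libraries thus kept Etl4 transcript below the WT level (log2 -1.07 ± 0.041, adjusted p = 7.9e-13, where ± is the standard error), and since the labels do not describe the edit, these reads do not show whether it encodes protein. The summed level of 10 ESC markers was 5820 and 5960 CPM in WT and 6740 and 6800 CPM in line 1, with 9 of them higher and Tdgf1 lower. Of 15 fibroblast markers, which feeder cells would bring, 6 were under 1 CPM in every library (Col3a1, Postn, Dcn, Lum, Fap and S100a4, with Fap at 0), and the sum was 71.5 and 68.2 CPM in WT and 58.5 and 61.6 CPM in line 1. Marker sums were 12.6 and 12.8 against 6.96 and 8.51 CPM for primitive endoderm, 108 and 107 against 125 and 128 CPM for trophoblast, 6.84 and 5.94 against 8.65 and 7.24 CPM for neural cells, and 77.9 and 68.9 against 68.3 and 70.7 CPM for mesoderm. The trophoblast sum was mostly Cdx2, at 86.5 and 80.6 against 110 and 112 CPM. Of 6 tested trophoblast markers Cdx2 was the 1 higher, and Eomes, Krt7 and Hand1 were lower. The mesoderm sum was mostly T, at 75.4 and 67 against 66.4 and 68.4 CPM. The part of these markers in the results was not tested, and in bulk RNA fewer cells of a type and less RNA per cell cannot be told apart.

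Line 1 differed from WT at 7616 of 14413 tested genes, 52.8% of them. Of all tested genes, 3859 (26.8%) were higher and 3757 (26.1%) lower in line 1 at an adjusted p under 0.05 in edgeR's quasi-likelihood test, which is what called, rose and fell mean from here on. Most differences were small, with a median absolute log2 fold change of 0.27 over all genes and 0.41 over the called ones. At a log2 change of 1 or more the balance was uneven, with 181 genes (1.26%) higher and 906 (6.29%) lower. Scaling by library totals moved the median over all genes from -0.01 to -0.07, and the share of calls that were higher from 50.7% to 41.0%. The line 1 libraries did not overlap with the WT libraries at 10869 genes, or 75.4% of those tested, 36.8% higher and 38.6% lower. With 2 libraries a side an exact permutation test of a single gene cannot give a p under 1 in 3, so the calls rest on the fit across all genes, in which replicates varied by 3.34% (the biological coefficient of variation).

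**Figure D1:**
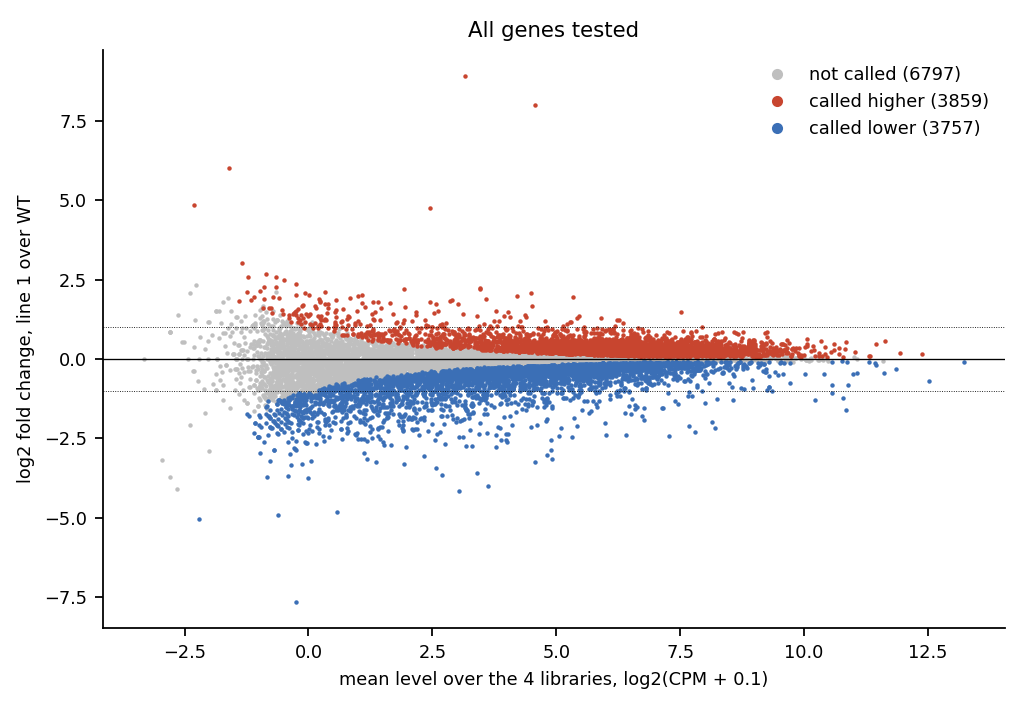
Every tested gene is a point, with its mean level over the 4 libraries on the x axis, as log2(CPM + 0.1), and its log2 fold change, line 1 over WT, on the y axis. Grey points are the 6797 genes not called, red points the 3859 called higher and blue points the 3757 called lower, and dotted lines mark a log2 change of 1 in each direction, beyond which blue points outnumber red ones (906 against 181).

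The hypoxia response gene list stood lower almost as a whole. This list and those below were chosen with earlier results of these data known, so their shares of calls are a description and no test. Of 22 tested genes of this list, 21 fell in line 1 and 0 rose, with a median log2 fold change of -1.76, where 26.1% of all tested genes fell and the median over all tested genes was -0.01. Car12, a carbonic anhydrase gene, did not pass (log2 -0.32 ± 0.4, adjusted p = 0.52). Ero1l, which encodes the oxidase that forms disulfide bonds in the endoplasmic reticulum (ER), was at 478 and 480 against 109 and 104 CPM (log2 -2.17 ± 0.038, adjusted p = 4.1e-17). Ndrg1, a stress-induced gene and a standard marker of hypoxia, was at 261 and 259 against 48.5 and 47.7 CPM (log2 -2.43 ± 0.047, adjusted p = 1.1e-16). The line 1 libraries of both genes lay well below the WT libraries, and the libraries of 1 group lay close together.

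Feedback genes of oxygen sensing fell with them. The prolyl hydroxylase gene Egln3 stood at 145 and 139 against 28.1 and 26.0 CPM (log2 -2.39 ± 0.053, adjusted p = 6.4e-16), and its relative Egln1 at 140 and 139.6 against 41.6 and 43.5 CPM (log2 -1.72 ± 0.047, adjusted p = 9.8e-15). Bnip3, a receptor that targets mitochondria for autophagy, was counted at 317 and 342 against 73.9 and 79.7 CPM (log2 -2.10 ± 0.047, adjusted p = 7.1e-16). In none of the 3 did a line 1 library reach the lower WT library. A further pair fell to near 1 CPM: Ndufa4l2, which encodes a mitochondrial protein induced by low oxygen, from 23.0 and 23.2 CPM to 1.90 and 0.889 CPM (log2 -4.0 ± 0.18, adjusted p = 9.9e-12), and Adm, which encodes the vessel-dilating peptide adrenomedullin, from 12.3 and 11.5 CPM to 1.03 and 0.825 CPM (log2 -3.66 ± 0.21, adjusted p = 2e-10).

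Other members, named after their values were seen, showed falls in several branches of the response. They were the growth factor gene Vegfa (log2 -1.16 ± 0.042), Ddit4, an inhibitor of mTORC1 (log2 -1.92 ± 0.046), and Pdk1, a kinase that holds back pyruvate dehydrogenase (log2 -1.58 ± 0.045). Among enzymes of collagen were the prolyl hydroxylase genes P4ha1 (log2 -1.54 ± 0.045) and P4ha2 (log2 -2.46 ± 0.077), the lysyl hydroxylase gene Plod2 (log2 -2.10 ± 0.073) and the lysyl oxidase relative Loxl2 (log2 -2.73 ± 0.19). The smallest called fall was that of the histone demethylase gene Kdm3a (log2 -0.23 ± 0.043), and the adjusted p of these 8 genes was at most 0.00028. The fall of Car9, a carbonic anhydrase gene at 0.985 and 1.13 against 0.435 and 0.381 CPM (log2 -1.35 ± 0.5, adjusted p = 0.03), was not called without any 1 of the 4 libraries (adjusted p from 0.0543 to 0.134).

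The HIF genes themselves did not fall as a group. Of 12 genes of the HIF system, which shares Egln1 and Egln3 with the list above, 4 rose and 5 fell. Hif1a, the main HIF alpha gene, was at 124 and 134 against 157 and 159 CPM and so rose slightly (log2 0.29 ± 0.043, adjusted p = 2.3e-05). Epas1, which encodes the second HIF alpha subunit, did not pass (log2 0.01 ± 0.058, adjusted p = 0.86), nor did Arnt2 (log2 -0.56 ± 0.31) and the asparagine hydroxylase gene Hif1an (log2 -0.09 ± 0.053). The partner gene Arnt fell by little (log2 -0.23 ± 0.041). Hif3a, which encodes an alpha subunit known mostly as a restraining one and is itself a target of the pathway, fell from 50.8 and 49.3 CPM to 4.68 and 7.75 CPM (log2 -3.03 ± 0.13, adjusted p = 3.7e-12). Vhl was at 101 and 99.2 against 67.9 and 73.1 CPM (log2 -0.51 ± 0.049, adjusted p = 1.4e-07). Egln2 rose (log2 0.47 ± 0.065), as did the coactivator gene Ep300 (log2 0.17 ± 0.039). The rise of Cited2, an inhibitor of that coactivator's binding (log2 0.25 ± 0.096, adjusted p = 0.036), was lost under 6 of the 12 alternatives, with log2 0.13 without WT replicate 1 (adjusted p = 0.291) and 0.14 without line 1 replicate 2 (adjusted p = 0.348). RNA says nothing about the stability of HIF alpha proteins, which were not measured.

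Because HIF binds DNA at short sites with the core ACGTG or GCGTG, promoters of members are shown. They are the 250 bases before the start of transcription in RefSeq's promoter windows (GRCm38.p6, the same assembly as mm10), on the gene's own strand, for the called members with the smallest adjusted p that have 1 listed start. The first 3 are hypoxia response genes and the last 3 belong to glucose use. For Slc16a3 that start and the bases before it lie inside the gene's RefSeq range, which begins further upstream. Capitals mark the core in either orientation.
Ero1l (Ero1a in RefSeq), chr14:45318573-45318822, minus strand: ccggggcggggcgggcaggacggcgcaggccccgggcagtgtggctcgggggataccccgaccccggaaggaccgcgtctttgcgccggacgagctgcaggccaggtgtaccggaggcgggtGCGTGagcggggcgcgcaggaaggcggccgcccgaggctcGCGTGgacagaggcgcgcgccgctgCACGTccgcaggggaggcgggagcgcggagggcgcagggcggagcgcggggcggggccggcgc
Egln3, chr12:54203875-54204124, minus strand: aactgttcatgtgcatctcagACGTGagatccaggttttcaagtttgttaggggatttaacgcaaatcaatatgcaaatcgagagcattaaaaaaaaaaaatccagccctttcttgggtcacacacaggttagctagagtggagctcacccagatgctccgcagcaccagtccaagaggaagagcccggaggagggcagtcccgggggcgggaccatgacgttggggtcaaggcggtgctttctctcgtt
Bnip3, chr7:138909507-138909756, minus strand: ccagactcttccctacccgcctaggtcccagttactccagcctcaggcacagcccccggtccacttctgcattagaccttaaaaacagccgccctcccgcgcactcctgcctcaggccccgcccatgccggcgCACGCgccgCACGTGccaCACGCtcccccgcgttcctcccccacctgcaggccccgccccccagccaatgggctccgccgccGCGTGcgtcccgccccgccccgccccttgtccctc
Slc2a1, chr4:119108495-119108744, plus strand: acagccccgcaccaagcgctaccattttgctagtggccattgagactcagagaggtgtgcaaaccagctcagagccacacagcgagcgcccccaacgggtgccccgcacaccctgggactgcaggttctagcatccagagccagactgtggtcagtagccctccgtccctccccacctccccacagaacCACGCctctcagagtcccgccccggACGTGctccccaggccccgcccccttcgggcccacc
Slc16a3, chr11:120948817-120949066, plus strand: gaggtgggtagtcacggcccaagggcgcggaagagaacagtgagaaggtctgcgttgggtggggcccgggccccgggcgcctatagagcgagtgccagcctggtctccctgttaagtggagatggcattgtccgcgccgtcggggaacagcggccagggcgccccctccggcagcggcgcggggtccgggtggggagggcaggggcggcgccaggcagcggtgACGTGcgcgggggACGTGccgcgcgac
Gpi1, chr7:34230337-34230586, minus strand: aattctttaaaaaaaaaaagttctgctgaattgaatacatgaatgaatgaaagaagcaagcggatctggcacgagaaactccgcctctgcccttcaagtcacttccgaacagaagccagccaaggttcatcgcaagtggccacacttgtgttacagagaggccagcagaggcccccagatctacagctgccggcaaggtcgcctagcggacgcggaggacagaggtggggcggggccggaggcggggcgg

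The core occurs 3 times in the Ero1l sequence, 1 time in that of Egln3 and 5 times in that of Bnip3, with overlapping matches counted each, since the E-box CACGTG of Bnip3 holds the core on both strands. It occurs 2 times each before Slc2a1 and Slc16a3 and 0 times before Gpi1. Over windows of 300 bases (250 before a start and 50 after it), 73.9% of the 23 windows of hypoxia response genes held a core, with 17 of the 22 genes matched. The share was 79.4% for glycolysis (34 windows), 76.9% for glycogen (13 windows) and 67.6% for ribosome biogenesis (34 windows), a list that rose. It was 60.7% over genes tested, 59.6% over genes that fell by log2 1 or more, 58.6% over genes not called, 39.0% over genes that rose by log2 1 or more and 43.8% over all 32851 windows. The median GC content also differed, at 63.7% in hypoxia response windows, 61.2% in glycolysis, 62.7% in glycogen and 58.3% in ribosome biogenesis windows. It was 60.3% over genes tested, 60.7% over genes that fell by log2 1 or more and 59.7% over genes not called. Over genes that rose by log2 1 or more it was 53.8%, and over all windows 52.7%. Its part in the core shares was not tested. A match is a run of letters in this window and shows no binding.

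Genes of glucose use were lower at nearly every step, while glucose uptake and lactate were not measured. Of 23 tested genes of glycolysis and of glucose or lactate transport, 22 fell and 0 rose (median log2 -0.98), 11 of them by log2 1 or more, and the counts of the list summed to 27250 and 27180 CPM in WT and to 15300 and 15310 CPM in line 1. The glucose transporter gene Slc2a1 was at 2763 and 2743 against 896 and 909 CPM (log2 -1.61 ± 0.024, adjusted p = 6.8e-18), and the neuronal-type transporter gene Slc2a3 at 7343 and 7211 against 4535 and 4570 CPM (log2 -0.68 ± 0.018, adjusted p = 9.8e-15). Slc16a3, which exports the lactate that glycolysis makes, was at 378 and 368 against 72.6 and 78.0 CPM (log2 -2.31 ± 0.042, adjusted p = 6.5e-17). For each transporter both line 1 libraries lay far below both WT libraries.

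Along the pathway, the isomerase gene Gpi1 was at 1701 and 1689 against 696 and 698 CPM (log2 -1.28 ± 0.026, adjusted p = 1.9e-16) and the X-linked kinase gene Pgk1, which makes ATP, at 2447 and 2500 against 1053 and 1063 CPM (log2 -1.23 ± 0.026, adjusted p = 2.8e-16). Aldoa, the aldolase of most tissues, was at 2391 and 2424 against 1368 and 1370 CPM (log2 -0.81 ± 0.023, adjusted p = 1.3e-14). The 2 groups did not overlap at any of them. Members named after their values were seen were the brain aldolase gene Aldoc (log2 -2.39 ± 0.059), the hexokinase gene Hk1 (log2 -1.15 ± 0.044), the phosphofructokinase gene Pfkl (log2 -1.26 ± 0.034), the lactate dehydrogenase gene Ldha (log2 -0.80 ± 0.025) and the pyruvate kinase gene Pkm (log2 -0.43 ± 0.02), each with an adjusted p of at most 1.3e-11. Gapdh did not pass (log2 -0.48 ± 0.48, adjusted p = 0.42), and Eno1 was called lower (log2 -2.28 ± 0.48). In WT, Gapdh was listed at 15.8 and 39.7 CPM and Eno1 at 1.56 and 1.6 CPM. These genes have many near-identical copies that the authors' counting could have split, so both values are uncertain.

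Glycogen genes fell alongside, 12 of 14 with 0 higher (median log2 -0.75). The phosphoglucomutase gene Pgm2, which links glucose phosphates to glycogen, was at 205 and 210.2 against 72.5 and 71.2 CPM (log2 -1.53 ± 0.041, adjusted p = 7.8e-15). Ppp1r3b, which directs a phosphatase to glycogen, was at 44.0 and 44.1 against 12.1 and 11.5 CPM (log2 -1.90 ± 0.086, adjusted p = 8.8e-12), and the liver-type phosphorylase gene Pygl, which breaks glycogen down, at 27.1 and 26.4 against 4.24 and 4.83 CPM (log2 -2.56 ± 0.12, adjusted p = 1.3e-11). Genes of both the making and the breakdown arm were thus lower, the synthase gene Gys1 included (log2 -0.90 ± 0.044), as was the branching enzyme gene Gbe1, named after its values were seen (log2 -1.6 ± 0.15).

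Lipid genes moved in the same direction by less. Of 25 cholesterol synthesis and uptake genes 21 fell and 1 rose (median log2 -0.40), the latter being the isomerase gene Ebp (log2 0.37 ± 0.043). Insig1, an ER sensor that holds the pathway in check and is one of its targets, was at 549 and 528 against 223 and 221 CPM (log2 -1.28 ± 0.034, adjusted p = 6.8e-15). Dhcr7, the last enzyme on the way to cholesterol, was at 132 and 129.7 against 47.0 and 46.1 CPM (log2 -1.49 ± 0.046, adjusted p = 5.4e-14), and Msmo1, a sterol oxidase, at 147 and 147 against 77.0 and 78.5 CPM (log2 -0.92 ± 0.042, adjusted p = 1e-11). For the 3 genes the line 1 libraries lay below the WT libraries without overlap. The regulator gene Srebf2, named after its values were seen, fell by little (log2 -0.40 ± 0.034). Of 17 genes of fatty acid synthesis and desaturation, 10 fell and 4 rose, with the desaturase genes Scd1 (log2 -0.90 ± 0.032) and Scd2 (log2 -1.06 ± 0.033) lower and the carboxylase gene Acacb higher (log2 0.74 ± 0.046). Scd2 went from 2129 and 1954 CPM to 974 and 991 CPM.

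Lysosomal genes fell too, 20 of 26 with 2 higher (median log2 -0.32). Hexa, a hexosaminidase gene, was at 138 and 132 against 83.5 and 89.1 CPM (log2 -0.65 ± 0.045, adjusted p = 2.2e-09), the protective protein gene Ctsa at 215 and 219 against 139 and 149 CPM (log2 -0.59 ± 0.041, adjusted p = 2.3e-09) and the sialidase gene Neu1 at 34.5 and 38.4 against 16.9 and 18.0 CPM (log2 -1.07 ± 0.086, adjusted p = 1.5e-08). The enzymes were lower while Tfeb, the transcription factor that activates lysosomal genes, was higher at 42.8 and 40.2 against 79.6 and 79.1 CPM (log2 0.93 ± 0.052, adjusted p = 1.3e-10). The other gene to rise was the cathepsin gene Ctsl (log2 0.17 ± 0.033).

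Genes of growth and protein synthesis stood higher. Of 30 ribosome biogenesis genes 28 rose and 1 fell, with a median log2 fold change of 0.43 beside 26.8% of all tested genes that rose, and the list summed to 8988 and 8935 CPM in WT and 11160 and 11290 CPM in line 1. The nucleolar helicase gene Ddx21 was at 319.9 and 305 against 552 and 566 CPM (log2 0.84 ± 0.033, adjusted p = 1.3e-12). Bysl, which matures the small ribosomal subunit, was at 49.0 and 46.2 against 100.4 and 96.1 CPM (log2 1.05 ± 0.054, adjusted p = 4.4e-11), and Bop1, which acts on the large one, at 73.0 and 72.7 against 141 and 138 CPM (log2 0.94 ± 0.042, adjusted p = 7.8e-12). In all 3 the lower line 1 library exceeded the higher WT library. Polr1b, a subunit of the polymerase that transcribes ribosomal RNA, rose as well (log2 0.84 ± 0.048), and the 1 member that fell was the pseudouridine synthase gene Dkc1 (log2 -0.41 ± 0.028).

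The machinery of translation in mitochondria and the charging of transfer RNA followed. Of 35 mitochondrial ribosome genes 29 rose and 1, Mrpl23, fell (log2 -0.60 ± 0.091; median of the list 0.31). Mrpl20 was at 34.1 and 34.7 against 62.5 and 61.0 CPM (log2 0.84 ± 0.061, adjusted p = 3.5e-09) and Mrps5 at 102 and 101 against 137 and 153 CPM (log2 0.51 ± 0.049, adjusted p = 1.2e-07). Of 20 aminoacyl-tRNA synthetase genes 18 rose and 0 fell (median log2 0.30), among them those for alanine, Aars, at 395 and 384 against 558 and 556 CPM (log2 0.52 ± 0.03, adjusted p = 2.9e-10), and for threonine, Tars, at 235 and 232 against 339.9 and 326 CPM (log2 0.51 ± 0.036, adjusted p = 2.5e-09). One-carbon, purine and pyrimidine synthesis genes also rose, 18 of 25 with 2 lower (median log2 0.27), for example Impdh1, which commits purines to guanine nucleotides (log2 0.75 ± 0.059), Umps, which completes uridine phosphate (log2 0.49 ± 0.038), and the mitochondrial folate enzyme gene Mthfd2 (log2 0.48 ± 0.042). Of 20 amino acid transporter genes 10 rose and 3 fell, with the arginine and lysine carrier genes Slc7a1 (log2 0.71 ± 0.038) and Slc7a3 (log2 0.85 ± 0.036) and the glutamine carrier gene Slc38a2 (log2 0.87 ± 0.056) higher.

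Respiratory genes encoded in the nucleus rose more often than they fell, by little. For complex I, 19 of 36 genes rose and 3 fell, for complexes III and IV 11 of 21 rose and 1 fell, and for ATP synthase 13 of 16 rose and 0 fell, with medians of 0.17, 0.13 and 0.18 on the log2 scale. Atp5g1, a gene for the rotating ring of ATP synthase, was at 89.7 and 86.9 against 134 and 135 CPM (log2 0.61 ± 0.04, adjusted p = 1.3e-09), and the cytochrome c gene Cycs at 79.5 and 91.5 against 125 and 122 CPM (log2 0.53 ± 0.053, adjusted p = 2.2e-07). The largest change among the 4 named genes of complex I was a fall, that of Ndufv3 from 53.1 and 55.5 CPM to 32.7 and 36.1 CPM (log2 -0.66 ± 0.069, adjusted p = 3.7e-07). In the tricarboxylic acid cycle 10 of 23 genes rose and 3 fell (median log2 0.08), with Mdh2 at 271 and 274 against 345 and 339 CPM (log2 0.33 ± 0.033, adjusted p = 2.1e-07) and the pyruvate dehydrogenase gene Pdha1 at 406 and 407 against 492 and 499 CPM (log2 0.29 ± 0.03, adjusted p = 4.6e-07). With scaling by library totals the medians were 0.11 for complex I, 0.07 for complexes III and IV, 0.12 for ATP synthase and 0.02 for the cycle. The share of calls that were higher went from 100% to 88.9% for ATP synthase and from 76.9% to 60.0% for the cycle.

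Pluripotency genes were higher. Of 15 core genes 13 rose and 2 fell (median log2 0.29), and of 18 naive-state genes 14 rose and 2 fell (median log2 0.39). Nanog, a central factor of the naive state, was at 651 and 640.2 against 958 and 988 CPM (log2 0.59 ± 0.028, adjusted p = 1.5e-11). Prdm14, which holds back lineage signals and DNA methylation, was at 68.6 and 66.2 against 136 and 129 CPM (log2 0.97 ± 0.044, adjusted p = 9.9e-12), and the naive marker Zfp42, or Rex1, at 227 and 228 against 346 and 354 CPM (log2 0.62 ± 0.033, adjusted p = 8e-11). All 3 genes had both line 1 libraries above both WT libraries. Lin28a, which blocks let-7 microRNAs (log2 0.93 ± 0.048), Sall4 (log2 0.60 ± 0.03) and the corepressor gene Trim28 (log2 0.63 ± 0.026) rose too, and the central pair Pou5f1 and Sox2, named after their values were seen, rose by little (log2 0.24 ± 0.027 and 0.24 ± 0.031). Falls were seen for the histone demethylase gene Kdm4c, at 161 and 158 against 91.0 and 92.6 CPM (log2 -0.80 ± 0.039, adjusted p = 2.7e-11), the Nodal co-receptor gene Tdgf1 (log2 -0.46 ± 0.026), Stat3 (log2 -0.28 ± 0.038) and Sox15 (log2 -0.75 ± 0.25, adjusted p = 0.017, and 0.141 without line 1 replicate 1). Of 13 formative and primed genes 5 rose and 1 fell, with Foxd3, a repressor that guides exit from the naive state, at 7.76 and 7.12 against 28.4 and 30.4 CPM (log2 1.98 ± 0.098, adjusted p = 2.8e-11) and Lef1, an effector of Wnt signalling, at 120 and 115 against 58.0 and 59.2 CPM (log2 -1.01 ± 0.047, adjusted p = 1.2e-11).

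Signals that govern this state moved in both directions. Of 14 genes of ERK feedback and its targets 9 rose and 3 fell (median log2 0.29), among them Spry2, a feedback inhibitor, at 84.1 and 87.4 against 141 and 147 CPM (log2 0.75 ± 0.046, adjusted p = 4.5e-10), and the ETS factor genes Etv4, at 4.0 and 4.39 against 9.19 and 9.40 CPM (log2 1.15 ± 0.14, adjusted p = 1.9e-06), and Etv5, at 567 and 570 against 679.5 and 679.8 CPM (log2 0.26 ± 0.028, adjusted p = 6.1e-07). Spry4, named after its values were seen, rose more (log2 1.99 ± 0.37), whereas the phosphatase gene Dusp4 fell (log2 -1.04 ± 0.15). Among 14 FGF ligand and receptor genes 5 rose and 4 fell, near the shares of all tested genes (26.8% higher and 26.1% lower). The receptor gene Fgfr3 dropped from 45.4 and 40.4 CPM to 4.51 and 4.57 CPM (log2 -3.24 ± 0.11, adjusted p = 1.6e-13), while Fgf17 rose from 12.8 and 11.5 CPM to 24.3 and 25.8 CPM (log2 1.04 ± 0.097, adjusted p = 8.8e-08). Of 15 genes of LIF and STAT3 signalling 7 rose and 2 fell, and the LIF receptor gene Lifr was at 64.1 and 61.0 against 95.6 and 91.1 CPM (log2 0.58 ± 0.049, adjusted p = 3.2e-08).

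In the Nodal, TGF-beta and BMP pathway 9 of 27 genes rose and 9 fell, somewhat above the shares of all tested genes. The secreted Nodal inhibitors stood out, with Lefty2 at 91.3 and 101 against 268 and 268 CPM (log2 1.48 ± 0.046, adjusted p = 5.4e-14) and Lefty1 at 9.16 and 7.90 against 24.8 and 22.9 CPM (log2 1.48 ± 0.11, adjusted p = 3.2e-09). The ligand gene Bmp7 was lower, at 48.0 and 45.4 against 23.5 and 20.6 CPM (log2 -1.08 ± 0.08, adjusted p = 5.3e-09). Nodal itself was higher and its signal carrier Smad3 lower, both named after their values were seen (log2 0.56 ± 0.08 and -0.83 ± 0.076). Wnt genes were called at about the rate of all tested genes, 8 of 26 higher and 7 lower, with the Wnt-inactivating enzyme gene Notum higher (log2 0.77 ± 0.043). The same held for Notch genes, 4 of 16 higher and 4 lower, with the receptor gene Notch3 (log2 -0.99 ± 0.05) and the ligand gene Jag2 (log2 -1.99 ± 0.15) lower.

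Of 15 immediate early genes, which growth and stress signals switch on within minutes, 12 fell and 2 rose (median log2 -0.78). The phosphatase gene Dusp1 was at 159.8 and 154 against 90.8 and 85.8 CPM (log2 -0.83 ± 0.044, adjusted p = 6.7e-11), and the AP-1 genes Jun at 36.0 and 36.8 against 16.6 and 14.4 CPM (log2 -1.23 ± 0.091, adjusted p = 5.5e-09) and Jund at 117 and 125 against 69.6 and 71.2 CPM (log2 -0.78 ± 0.052, adjusted p = 1.5e-09). Line 1 libraries were the lower ones in each. Egr1 and Fos, named after their values were seen, fell more (log2 -1.97 ± 0.23 and -1.59 ± 0.16), and Myc, the driver of ribosome and nucleotide synthesis genes, was one of the 2 that rose (8.75 and 8.49 against 20.1 and 19.5 CPM; log2 1.20 ± 0.11, adjusted p = 4.6e-08).

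Of 24 integrated stress response genes 15 rose and 4 fell (median log2 0.26). Those that rose included the serine synthesis gene Psat1, at 427 and 422 against 587 and 575 CPM (log2 0.45 ± 0.03, adjusted p = 1.2e-09), and the glycine carrier gene Slc6a9, at 13.4 and 13.6 against 23.2 and 24.8 CPM (log2 0.83 ± 0.093, adjusted p = 8.5e-07). Ddit3, or Chop, a factor of the late stress response, instead fell from 22.4 and 24 CPM to 8.11 and 9.27 CPM (log2 -1.42 ± 0.11, adjusted p = 5.5e-09). Atf4, the factor at the head of this response, did not pass (log2 0.08 ± 0.034, adjusted p = 0.053), and it did pass under 4 of the 12 alternatives (adjusted p from 0.0176 to 0.0494). Of 21 ER chaperone and unfolded protein response genes 12 rose and 5 fell (median log2 0.12), with the co-chaperone gene Dnajb11 at 99.6 and 100.4 against 144 and 143 CPM (log2 0.52 ± 0.039, adjusted p = 6.5e-09). With library totals 53.3% of the calls of this list were higher instead of 70.6% (median 0.06), and for the integrated stress response 68.4% instead of 78.9%. Oxidative stress genes split, 9 of 23 higher and 6 lower. The metallothionein genes Mt1 (log2 -0.88 ± 0.038) and Mt2 (log2 -0.75 ± 0.036), which bind zinc and other metals, and the heme oxygenase gene Hmox1 (log2 -0.57 ± 0.039) fell, and the peroxiredoxin gene Prdx6 rose (log2 0.53 ± 0.034).

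Of 26 genes of the G1/S step and DNA replication 16 rose and 1 fell, the latter being E2f1 (log2 -0.42 ± 0.045; median of the list 0.16). The cyclin gene Ccnd1 was at 104 and 108 against 189 and 197 CPM (log2 0.86 ± 0.041, adjusted p = 1.8e-11) and Ccne1, which drives entry into S phase, at 79.1 and 79.9 against 117 and 119 CPM (log2 0.57 ± 0.041, adjusted p = 3.7e-09). Of 30 genes of mitosis and cytokinesis 15 rose and 5 fell (median log2 0.08), and with library totals 60.0% of the calls were higher instead of 75% (median 0.02). Cdc20, an activator of the anaphase-promoting complex, was higher at 165 and 163 against 247 and 249 CPM (log2 0.60 ± 0.036, adjusted p = 3.3e-10), and Kif23, a motor of the midzone needed to complete cytokinesis, was lower at 251 and 241 against 163 and 158 CPM (log2 -0.61 ± 0.039, adjusted p = 6.2e-10). The kinase gene Plk1 rose (log2 0.41 ± 0.038), as did the spindle checkpoint gene Mad1l1 (log2 0.70 ± 0.07), and Aurkb, named after its values were seen, fell (log2 -0.24 ± 0.045). Of 22 centrosome genes 9 rose and 4 fell, among them Pcnt, a scaffold of the centrosome (log2 0.41 ± 0.045), and Stil, needed for centriole duplication (log2 -0.49 ± 0.067). DNA content was not measured, so none of these values gives the ploidy of either group.

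The p53 list was called at the rate of all tested genes, 6 of 22 higher and 6 lower. Its members went apart, with the arrest gene Cdkn1a, or p21, at 235 and 232 against 179.6 and 179 CPM (log2 -0.38 ± 0.037, adjusted p = 1.6e-07), the death-promoting gene Pmaip1, or Noxa, at 76.2 and 80.6 against 38.0 and 39.0 CPM (log2 -1.02 ± 0.057, adjusted p = 1.3e-10) and Tigar, which diverts glucose from glycolysis, at 47.5 and 47.0 against 89.0 and 87.8 CPM (log2 0.90 ± 0.048, adjusted p = 6.8e-11). Of the 3, Cdkn1a and Pmaip1 were thus lower and Tigar higher in line 1. Trp53 rose by little (log2 0.19 ± 0.055), a call lost with DESeq2 (adjusted p = 0.0556) and with scaling by library totals (adjusted p = 0.0547). Of 19 apoptosis regulators 9 fell and 5 rose, including the caspase activator gene Apaf1 (log2 -0.49 ± 0.068) and the survival gene Bcl2l1 (log2 0.43 ± 0.056).

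Among chromatin genes, 12 of 20 of the heterochromatin and retrotransposon silencing list rose and 2 fell (median log2 0.23), and 12 of 20 polycomb and trithorax genes rose and 3 fell (median log2 0.21). The remodeller gene Atrx was at 510.3 and 496 against 704 and 687 CPM (log2 0.47 ± 0.03, adjusted p = 9.7e-10) and Wdr5, a shared subunit of the trithorax complexes, at 237 and 234 against 299 and 307 CPM (log2 0.36 ± 0.034, adjusted p = 9.6e-08). Phf19, a polycomb accessory gene named after its values were seen, fell (log2 -1.67 ± 0.35). Of 14 genes of DNA methylation and demethylation 7 rose and 2 fell. The methyltransferase gene Dnmt3b was at 80.0 and 81.6 against 147 and 154 CPM (log2 0.90 ± 0.042, adjusted p = 1.5e-11), the demethylation gene Tet1 at 416 and 406 against 557 and 544 CPM (log2 0.42 ± 0.031, adjusted p = 3.9e-09) and Zfp57, which protects methylation at imprinted regions, at 203 and 203 against 288 and 287 CPM (log2 0.50 ± 0.035, adjusted p = 2e-09). All 3 were higher in both line 1 libraries than in either WT library. Dnmt3l, a cofactor of the methyltransferases, fell (log2 -0.30 ± 0.073), a call lost without line 1 replicate 1 (adjusted p = 0.0552).

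Androgenetic cells hold paternal chromosomes only. Of 21 tested genes listed as expressed from the maternal copy, 10 fell and 1 rose (median log2 -0.26). The list summed to 1097 and 1124 CPM in WT and to 975 and 958.9 CPM in line 1, so as a whole it was not silent in either group. Which of its members are imprinted in these cells was not tested. Igf2r, a receptor that clears Igf2, was at 200 and 195 against 130.2 and 126 CPM (log2 -0.62 ± 0.041, adjusted p = 1.1e-09), and Ascl2, a factor of the placenta, at 11.7 and 12.9 against 4.13 and 4.89 CPM (log2 -1.45 ± 0.14, adjusted p = 2.2e-07). Both were lower in each line 1 library. Paternally expressed genes were called near the rate of all tested genes, 7 of 25 higher and 6 lower. Mest was at 24.5 and 22.5 against 44.0 and 47.3 CPM (log2 0.96 ± 0.074, adjusted p = 8.7e-09), and Igf2, named after its values were seen, fell slightly (log2 -0.24 ± 0.042). Kcnq1ot1, a long RNA antisense to Kcnq1, fell (log2 -0.84 ± 0.08), and the strand setting of the counting is not given in the sources used here, so its reads cannot be told apart from those of its partner.

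Germline genes listed as silenced by DNA methylation were mostly lower or not called, with 2 of 17 higher and 7 lower (median log2 -0.32). The list summed to 372.4 and 404.5 CPM in WT and to 409.5 and 400.9 CPM in line 1, so as a whole it was not silent in either group. Ddx4, an RNA helicase of germ cells, was at 17.0 and 18.2 against 10.6 and 11 CPM (log2 -0.71 ± 0.1, adjusted p = 1.4e-05), and Hormad1, which acts on meiotic chromosomes, at 11.8 and 14.7 against 7.18 and 8.51 CPM (log2 -0.76 ± 0.13, adjusted p = 0.00011). Rpl10l, the autosomal relative of a ribosomal protein gene, rose (log2 0.40 ± 0.05), as did Tex19.1 (log2 0.27 ± 0.044). The 2-cell-like list gave 1 call of 14, that of Usp17lc (log2 0.99 ± 0.39, adjusted p = 0.04), lost without WT replicate 1 (adjusted p = 0.148) or 2 (adjusted p = 0.0858) or line 1 replicate 1 (adjusted p = 0.0804) and in DESeq2 (adjusted p = 0.15). All 14 log2 changes lay above 0, between 0.08 and 1.07 (median 0.67). The listed genes had low levels, summing to 7.42 and 9.74 CPM in WT and to 13.05 and 14.09 CPM in line 1. They belong in large part to families of near-identical copies that counting could have split. Zscan4a, at 0.869 and 1.07 against 1.58 and 1.65 CPM, missed the threshold (log2 0.73 ± 0.3, adjusted p = 0.052). Without the filter on low counts Zscan4a, Usp17le and Zscan4c were called higher in the same test (adjusted p = 0.0498, 0.0374 and 0.0464).

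Among lineage markers, Tubb3, the neuronal tubulin gene, was at 7.53 and 9.44 against 35.6 and 36.6 CPM (log2 2.09 ± 0.1, adjusted p = 2.9e-11), in a neural list of which 3 of 9 genes rose and 0 fell. Gata6, a factor of primitive endoderm, was at 3.30 and 4.04 against 0.653 and 1.08 CPM (log2 -2.10 ± 0.29, adjusted p = 1.2e-05), and Eomes, a factor of trophoblast and mesoderm, at 4.35 and 6.53 against 1.30 and 1.84 CPM (log2 -1.80 ± 0.26, adjusted p = 1.4e-05). Of 14 primitive endoderm genes 2 rose and 4 fell, of 11 primitive streak and mesoderm genes 2 rose and 2 fell, and of 9 tested fibroblast genes 1 rose and 2 fell, shares that were near or under those of all tested genes. Trophoblast genes, which include keratins that other epithelia use, showed 6 of 15 higher and 7 lower. Krt8 and Krt18, partners in simple epithelia, rose together (log2 0.42 ± 0.043 and 0.54 ± 0.06), and Krt19 fell from 38.2 and 40.5 CPM to 9.41 and 9.08 CPM (log2 -2.09 ± 0.093, adjusted p = 7.6e-12).

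Of 21 voltage-gated calcium and potassium channel genes 11 fell and 2 rose (median log2 -0.59). Cacna1h, a calcium channel that opens at low voltage, had 16.7 and 14.1 CPM in WT and 0.653 and 1.08 CPM in line 1 (log2 -4.17 ± 0.21, adjusted p = 3.1e-11), the largest fall within the limits given below for ranking. Integrin and matrix genes fell in 14 of 23 cases and rose in 4, for example the fibronectin gene Fn1, at 2561 and 2384 against 1827 and 1853 CPM (log2 -0.43 ± 0.028, adjusted p = 1.2e-09). Of 14 annexin and S100 genes 7 fell and 5 rose, with Anxa2, which links membranes to actin and stands in the hypoxia list as well, at 159.7 and 169.7 against 48.4 and 45.5 CPM (log2 -1.81 ± 0.049, adjusted p = 9.8e-15).

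Epithelial adhesion genes were called at about the rate of all tested genes, 5 of 22 higher and 6 lower, with the desmosome gene Pkp2 at 37.7 and 40.9 against 16.8 and 17.0 CPM (log2 -1.22 ± 0.083, adjusted p = 1.7e-09). Of 17 intermediate filament genes 9 rose and 4 fell (median log2 0.45), with the lamin genes Lmnb1 (log2 0.49 ± 0.03) and Lmna (log2 0.67 ± 0.066) and, named after their values were seen, Vim (log2 0.45 ± 0.051) and the neurofilament gene Nefm (log2 1.63 ± 0.21) higher. Of 19 interferon-stimulated and MHC class I genes 9 fell and 4 rose (median log2 -0.47). H2-K1, a classical class I gene, was at 42.1 and 40.8 against 16.9 and 15.1 CPM (log2 -1.37 ± 0.084, adjusted p = 4.7e-10), the peptide transporter gene Tap1 at 8.29 and 8.02 against 2.56 and 2.79 CPM (log2 -1.61 ± 0.19, adjusted p = 2e-06) and B2m, the light chain of class I molecules, at 58.5 and 63.0 against 42.2 and 40.0 CPM (log2 -0.56 ± 0.065, adjusted p = 1.2e-06). The 3 antigen presentation genes were lower together while the membrane protein gene Ifitm3 was higher (log2 0.45 ± 0.056).

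For other lists too the share of calls that were higher moved with library totals as the scaling. It went from 90.0% to 77.8% for one-carbon, purine and pyrimidine synthesis, from 76.9% to 66.7% for amino acid transporters, from 80.0% to 68.8% for polycomb and trithorax genes and from 77.8% to 58.3% for DNA methylation. It went from 44.4% to 33.3% for the HIF system, from 53.3% to 41.2% for Wnt genes, from 60.0% to 43.8% for oxidative stress and from 50% to 36.4% for p53. It went from 53.8% to 30.8% for paternally expressed genes and from 33.3% to 14.3% for primitive endoderm, and the single call of the 2-cell-like list was lost. No call of the hypoxia response, glycolysis and glycogen lists was higher under either scaling.

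**Figure D2:**
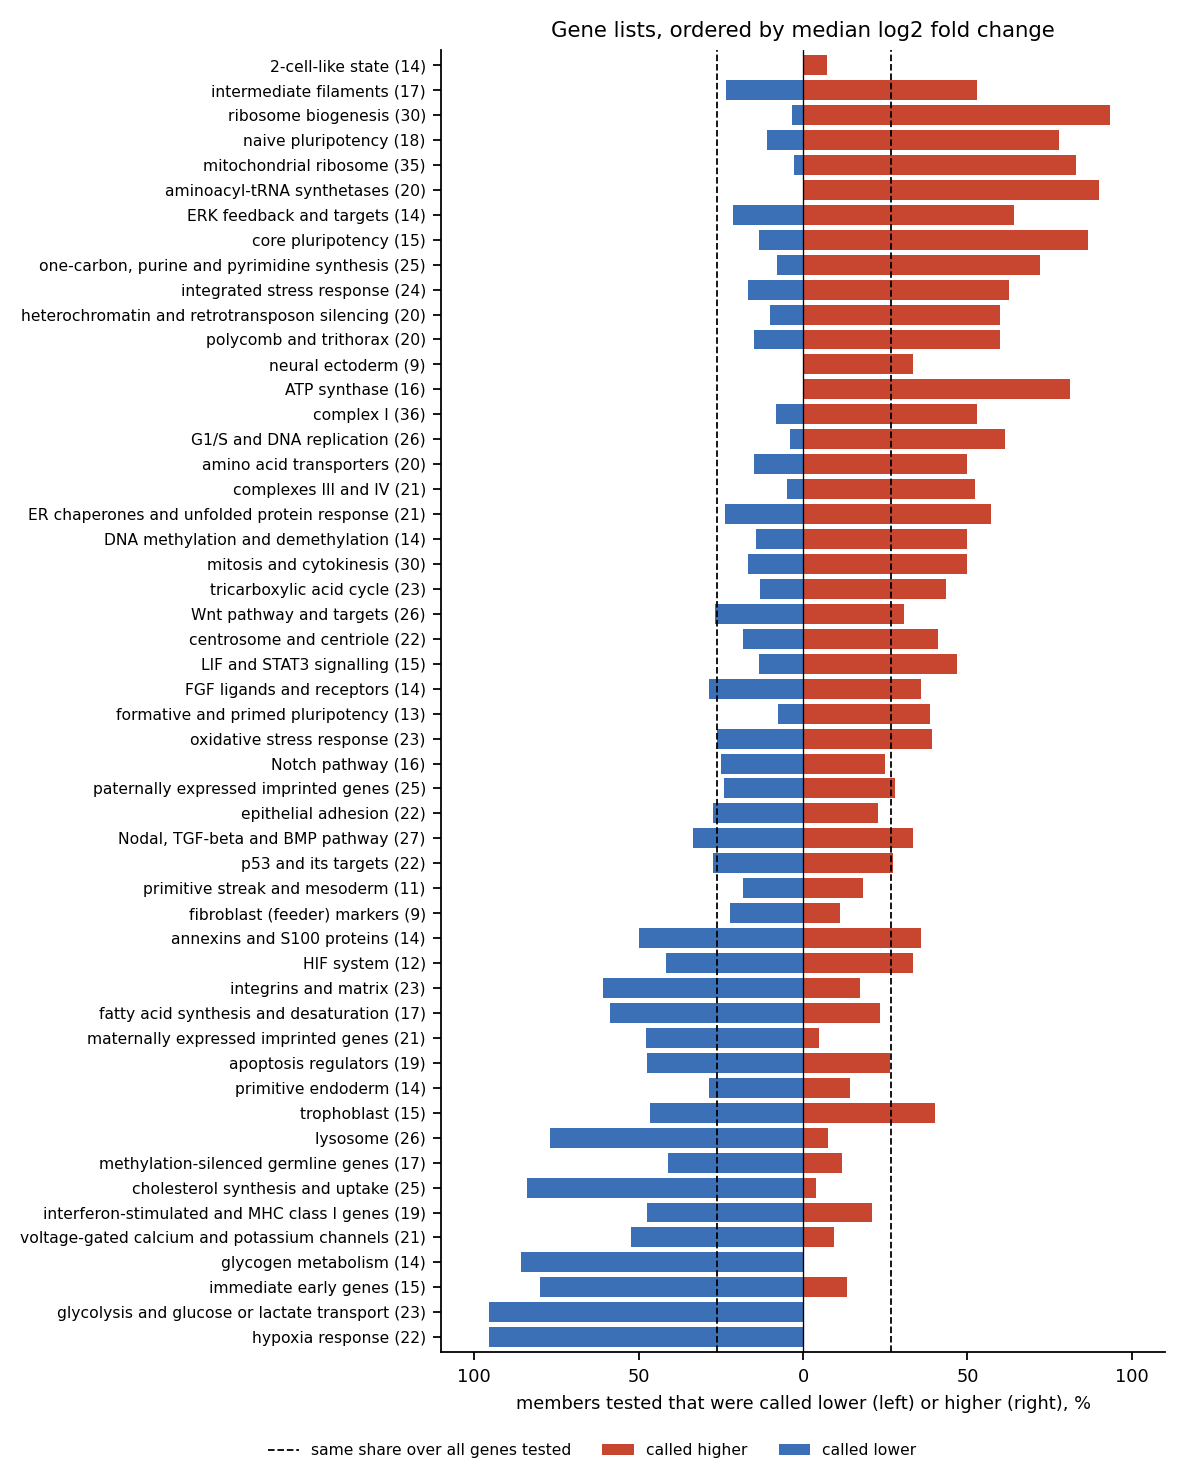
For each of the 52 gene lists, bars give the percentage of tested members called lower (blue, to the left) and called higher (red, to the right) in line 1, with the number tested in brackets and the lists ordered by median log2 fold change. Dashed lines mark the shares over all genes tested, 26.1% lower and 26.8% higher, and the hypoxia response, glycolysis and glycogen lists have blue bars only.

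Genes were ranked by fold where they were called, the higher group averaged 5 CPM or more, and the libraries did not overlap. The 12 largest falls were Cacna1h, Ndufa4l2, Adm, Grin1, Nxph4, Entpd4, Fgfr3, Aire, Card14, Hif3a, Ace and Aifm3. Grin1, an NMDA receptor subunit gene, was at 20.7 and 17.9 against 1.58 and 1.59 CPM (log2 -3.60 ± 0.16, adjusted p = 8.6e-12), and Aire, known for self-antigen expression in the thymus, at 52.9 and 54.7 against 5.55 and 6.67 CPM (log2 -3.15 ± 0.099, adjusted p = 5.4e-14). Ace, which encodes the enzyme that makes angiotensin II, was at 48.9 and 55.2 against 7.34 and 6.86 CPM (log2 -2.87 ± 0.1, adjusted p = 4e-13). Every one of the 12 fell by log2 2.5 or more and 8 of them stood below 2 CPM in both line 1 libraries. Entpd4 has a near-identical copy, Entpd4b, so its value is uncertain (3.42 and 9.97 against 0.489 and 0.889 CPM; log2 -3.29 ± 0.47, adjusted p = 1.3e-05).

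The 12 largest rises in the same ranking were Gnpda2, Guf1, Tfap2c, Alb, Tubb3, Foxd3, Cyp1a1, Mmp12, Gnat1, Ppp1r1a, Tunar and Lrp2. Cyp1a1, the classical target of the aryl hydrocarbon receptor, was at 16.5 and 16.7 against 65.2 and 63.3 CPM (log2 1.95 ± 0.083, adjusted p = 3.8e-12). Cyp1b1, another target of that receptor, was at 11.3 and 10.4 against 35.5 and 33.5 CPM (log2 1.67 ± 0.11, adjusted p = 6.8e-10). Both cytochrome genes thus had line 1 libraries well above the WT libraries. Lrp2, or megalin, an endocytic receptor, was at 1.97 and 3.44 against 9.90 and 8.19 CPM (log2 1.75 ± 0.2, adjusted p = 1.2e-06), and Tunar, a long non-coding RNA of pluripotent cells, at 1.97 and 2.85 against 9.52 and 7.24 CPM (log2 1.81 ± 0.2, adjusted p = 7.2e-07). The albumin gene Alb was at 2.43 and 0.237 against 9.36 and 2.73 CPM (log2 2.20 ± 0.75, adjusted p = 0.021). In line 2 it was at 6.16 and 0.337 CPM, so replicate 1 was the higher library in WT, line 1 and line 2 alike. The cause of that pattern was not tested. The size of the rise rested on line 1 replicate 1, without which the log2 change was 1.02. Without WT replicate 1 it was 4.67 and without WT replicate 2 it was 1.35, and the call was lost in DESeq2 (adjusted p = 0.343).

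**Figure D3:**
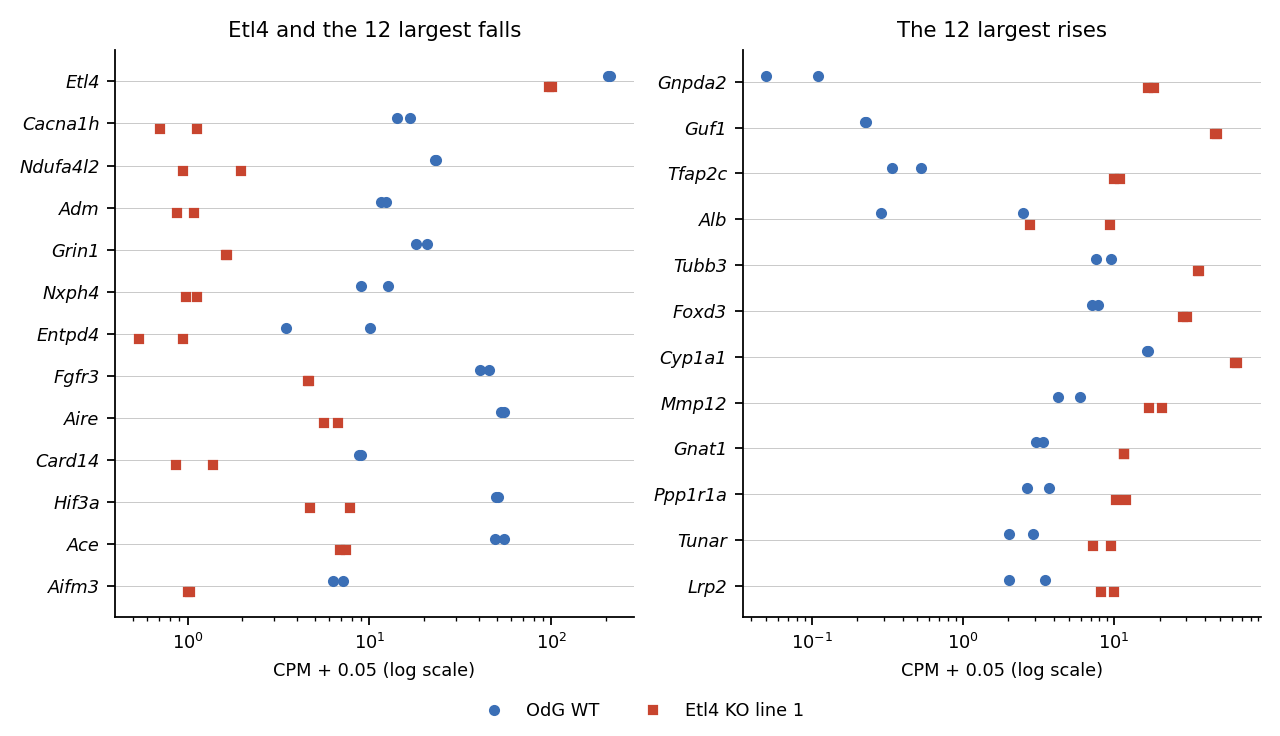
Each library's level, as CPM + 0.05 on a log axis, is shown for Etl4 and the 12 largest falls on the left and for the 12 largest rises on the right, with circles for the 2 OdG WT libraries and squares for the 2 line 1 libraries. Circles and squares do not overlap in any row, and the closest approach is that of Alb, at 2.43 CPM in 1 WT library and 2.73 CPM in 1 line 1 library.

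The largest rises were neighbours on chromosome 5 that WT hardly expressed. Guf1 (chromosome 5, 69556910 to 69574652), a translation factor of mitochondria, had 3 and 3 counts in WT and 881 and 736 in line 1, a ratio of 269 (95% interval 123 to 735, which covers counting error only). Gnpda2 (chromosome 5, 69574998 to 69592332), an enzyme of glucosamine phosphate, had 0 and 1 counts in WT and 309 and 289 in line 1, a ratio of 597 (107 to 23630). Further genes of this stretch were at 0 in both WT libraries and at few counts in line 1, with 6 and 8 counts of Yipf7 (from 69516670) and 10 and 6 of Cox7b2, and with 0 to 3 counts of Gabrg1, Gabra2, Gabra4 and Gabrb1 (to 72149572). The genes on either side had counts in both groups, Commd8 with 836 and 891 against 1073 and 980, and Kctd8 with 3 and 3 against 12 and 18. In line 2 Guf1 had 761 and 757 counts, and in EG1 it had 689 to 806 in WT and 587 to 684 in KO, so that of the 5 groups OdG WT was the one near 0. Tfap2c (chromosome 2, 172545678 to 172558622), a factor of trophoblast and germ cells, was at 0.290 and 0.475 against 10.9 and 9.97 CPM (log2 4.75 ± 0.22, adjusted p = 1.3e-11) and at 115 and 110.4 CPM in line 2. In EG1 it averaged 86.75 CPM in WT and 85.54 CPM in KO, so OdG WT was again the group near 0.

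Over whole chromosomes the median log2 fold change stayed between -0.06 (chromosome 11) and 0.02 (chromosome 15). On chromosome 5, with 899 genes tested, it was 0.01, and on the X chromosome -0.01. The medians thus lay within a narrow range around 0, and since the values are relative to each library's total, they give no copy number of the whole set.

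**Figure D4:**
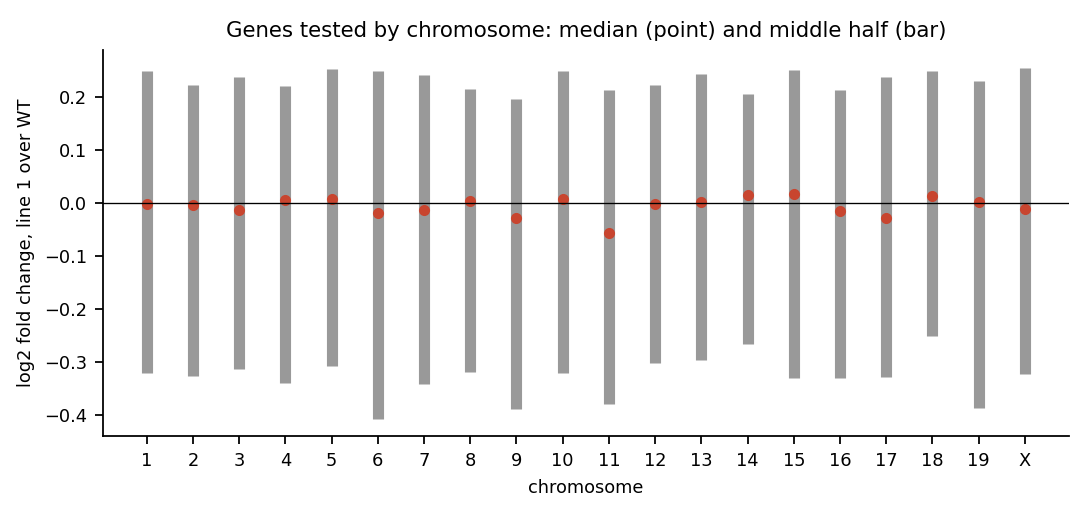
The points are the medians of the log2 fold change, line 1 over WT, of the genes tested on each chromosome, and the bars span the middle part of the genes, from the lower to the upper quartile. Medians run from -0.06 on chromosome 11 to 0.02 on chromosome 15, and every bar crosses 0.

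Genes that were nearly silent in 1 group were few. With at most 10 counts over both libraries of a group and at least 1 CPM in both libraries of the other, 25 genes were off in line 1 and 4 were on. Aox4, an aldehyde oxidase gene, had 53 and 39 counts in WT against 1 and 2 in line 1, a ratio of 30.7 (10.2 to 152). Sox10, a neural crest factor, had 30 and 29 counts against 2 and 7, and Ptgds, a prostaglandin synthase gene, 26 and 25 against 4 and 1. Genes that came on were Guf1, Gnpda2, Pramel6 and the predicted gene 4933406M09Rik. Pramel6 had 5 and 5 counts in WT and 23 and 18 in line 1, a ratio of 4.1 (2.02 to 9.17), in a family of near-identical copies.

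By share of the library, the genes that gained most were Hspa8, Actb, Ncl, Hsp90ab1, Hnrnpu and Spp1. The chaperone gene Hspa8 was at 2541 and 2572 against 3749 and 3774 CPM (log2 0.56 ± 0.02, adjusted p = 2.7e-13), beta-actin, Actb, at 2408 and 2294 against 3286 and 3240 CPM (log2 0.47 ± 0.024, adjusted p = 3e-11) and osteopontin, Spp1, at 1303 and 1310 against 1795 and 1822 CPM (log2 0.47 ± 0.024, adjusted p = 3.6e-11). In the WT libraries these took less of the total, without overlap. Those that lost most were Slc2a3, Slc2a1, Pgk1, Scd2, Aldoa and Gpi1, of which all but Scd2 are glycolysis genes described above.

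Line 2 was compared with the same 2 WT libraries, so the 2 comparisons share their controls and each is given by its own values. Line 2 differed from WT at 59.9% of the 14413 genes, 30% higher and 29.8% lower, with 4.8% higher and 7.5% lower by log2 1 or more. The log2 fold changes of line 1 and line 2 were -1.61 and -1.68 for Slc2a1, -2.31 and -2.01 for Slc16a3, and 0.59 and 0.58 for Nanog. Of the hypoxia response genes 19 of 22 fell and 0 rose in line 2 (median log2 -1.18), of glycolysis genes 22 fell and 1 rose (median log2 -0.94), and of ribosome biogenesis genes 25 of 30 rose and 1 fell. Gnpda2 had 357 and 414 counts in line 2, beside 309 and 289 in line 1.

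A direct test of line 1 against line 2, which does not use the WT libraries, called 37.8% of genes, 19.2% higher and 18.6% lower in line 1, with 1.85% higher and 4.92% lower by log2 1 or more. Hypoxia response genes lay lower in line 1, 16 of 22 with 1 higher, and so did 15 of 25 cholesterol genes with 3 higher and 12 of 23 glycolysis genes with 3 higher. Egln3 was at log2 -1.25 in line 1 relative to line 2 (adjusted p = 1.9e-11), Ndrg1 at -0.93 (adjusted p = 1.7e-10) and Dhcr7 at -0.68 (adjusted p = 6.7e-09). ER chaperone genes went the other way, with 14 of 21 higher and 1 lower in line 1 than in line 2, for example Manf (log2 0.51, adjusted p = 3.8e-08).

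The germline and 2-cell-like lists also separated the lines. All 17 germline genes and all 14 tested 2-cell-like genes were lower in line 1 than in line 2. Against WT, line 2 had 15 of the 17 germline genes higher and 0 lower (median log2 1.39). It also had all 14 of the 2-cell-like genes higher (median log2 2.49). The medians of line 1 against WT were -0.32 and 0.67. Dazl, an RNA-binding protein of germ cells, was at 22.9 and 36.5 against 21.9 and 22.2 CPM and at 88.1 and 88.1 CPM in line 2 (line 1 over line 2 log2 -2.00, adjusted p = 6.6e-10). Its fall against WT (log2 -0.42 ± 0.14, adjusted p = 0.016) rested on WT replicate 2, without which the log2 change was -0.05 (adjusted p = 0.674), and the call was also lost without line 1 replicate 1 (adjusted p = 0.076) or 2 (adjusted p = 0.0572) and in DESeq2 (adjusted p = 0.199). Genes called against both WT and line 2 in the same direction were ranked where the higher of the WT and line 1 means was 5 CPM or more. Vnn1, Thbs1, Cryab, Pmp22, Cyp1b1 and Cyp7b1 were the furthest above line 2, and the call of Cyp7b1 against WT was lost without line 1 replicate 1 (adjusted p = 0.0587) or WT replicate 1 (adjusted p = 0.0636). Vnn1, a pantetheinase gene, was at 12.2 and 11.9 against 22.7 and 22.2 CPM and at 2.93 and 3.03 CPM in line 2 (line 1 over line 2 log2 2.91, adjusted p = 6.6e-12). Furthest below line 2 were Scml2, Parva, Ccdc136, Dazl, Map3k15 and Aifm3, with Scml2, an X-linked polycomb-like gene, at 15.0 and 14.5 against 10.4 and 11.2 CPM and at 62.6 and 64.3 CPM in line 2 (log2 -2.55, adjusted p = 1.3e-13). The call of Parva against WT was lost without line 1 replicate 1 (adjusted p = 0.0905).

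EG1 gives a comparison with its own WT libraries. There KO differed from WT at 7.66% of 14016 genes, 3.6% higher and 4.06% lower, and at 0.0785% higher and 0.314% lower by log2 1 or more. Without EG1 WT replicate 1, 2 or 3 the 1074 calls became 638, 672 and 658. Over 13630 genes tested in both, 726 were called in the same direction in line 1 and in EG1 KO (368 higher and 358 lower) and 85 in opposite directions. The 726 make up 9.81% of the 7404 line 1 calls and 68.7% of the 1057 EG1 calls. Their median absolute log2 fold change was 0.55 in line 1 and 0.23 in EG1, and across the 13630 genes, which are not independent replicates, the log2 fold changes correlated at r = 0.35.

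Of hypoxia response genes 16 of 21 fell in EG1 KO and 0 rose, of glycolysis genes 14 of 22 fell and 0 rose, and of cholesterol genes 6 of 25 fell and 0 rose. The falls were smaller, with log2 -0.33 for Slc2a1 (adjusted p = 8.8e-09), -0.29 for Ero1l (adjusted p = 5.8e-05) and -0.56 for Ndrg1 (adjusted p = 3.9e-09). These 3 genes also stood lower in EG1 WT than in OdG WT, with both cell lines scaled apart. The means of OdG WT, line 1 and EG1 WT were 2753, 902 and 609 CPM for Slc2a1 and 479, 106.5 and 123 CPM for Ero1l. For Ndrg1 they were 260, 48.1 and 65.1 CPM. Etl4 itself fell by a like amount, log2 -0.99 in EG1 and -1.07 in line 1, and the difference did not pass (-0.08, adjusted p = 0.24). Aminoacyl-tRNA synthetase genes rose in EG1 as well (12 of 20, with 0 lower), as did 19 of 23 integrated stress response genes, with 0 lower. Of ribosome biogenesis genes 5 of 30 rose there and of naive pluripotency genes 2 of 18. All 14 tested 2-cell-like genes fell in EG1 KO, where line 1 had 1 called higher. Among genes at 5 CPM or more in the higher of the OdG WT and line 1 means, the largest shared rises, in order of the smaller of both changes, were Cyp1b1, Mid1, Slco2a1, Nt5e, Slc6a9 and Lrp2. The largest shared falls were Entpd4, Cacna1h, Adm, Acvrl1, Selenbp1 and Nxph4. The limit of 5 CPM was not applied to EG1, where the first gene of each ranking was low. In EG1 WT and KO, Cyp1b1 averaged 0.601 and 1.375 CPM. Entpd4 averaged 1.491 CPM in WT, with a standard deviation of 1.487 CPM, and 0.438 CPM in KO. Slco2a1, a prostaglandin carrier gene, was at log2 0.86 in line 1 and 0.84 in EG1, and Acvrl1, a receptor of the BMP family, at -2.55 and -1.14.

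The difference between the line 1 effect and the EG1 effect was tested in 1 fit over both tables. It passed at 33.7% of 14977 genes, 17.9% with the line 1 effect higher and 15.8% with it lower, and by log2 1 or more at 1.22% and 3.8%. The line 1 effect minus the EG1 effect was log2 -1.29 for Slc2a1 (adjusted p = 8.6e-20), 0.86 for Bysl (adjusted p = 1.6e-10) and 0.57 for Nanog (adjusted p = 2.7e-12). Shared changes without a difference past the threshold included Slco2a1 (adjusted p = 0.93), Mid1 (adjusted p = 0.73) and Mthfd2 (adjusted p = 0.38), which does not show that the effects were equal. Parental line, KO line and table differ together here, so their parts cannot be told apart.

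**Figure D5:**
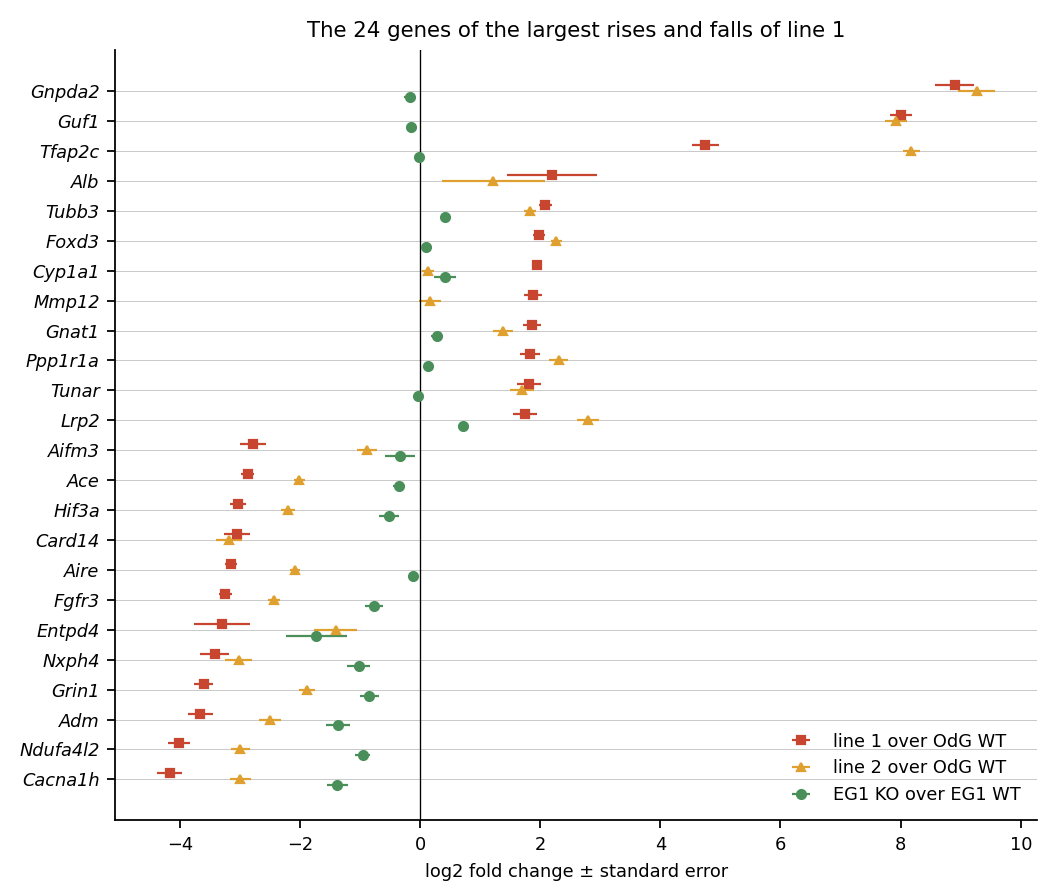
Points give the log2 fold change, with bars of ± 1 standard error, of the 24 genes of the largest rises and falls of line 1 in 3 comparisons: line 1 over OdG WT (squares), line 2 over OdG WT (triangles) and EG1 KO over EG1 WT (circles, absent for Alb, Mmp12 and Card14, which were not tested there). Gnpda2, Guf1 and Tfap2c lie far to the right in both OdG lines, which share their WT libraries, and at -0.17, -0.14 and -0.02 in EG1.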

How the data were processed

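RNA was sequenced from 12 libraries, of which the 4 of OdG WT and line 1 are described. The authors deposited whole-number read counts per gene symbol in 1 table per cell line. Per the submitters' processing notes, CASAVA, HISAT2 2.1.0, featureCounts 1.6.4 and DESeq2 were used with the mm10 build. For the gene annotation, read filters and strand setting, this is not given in the sources used here. Library totals ran from 16110028 to 18774032 counts.

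Counts were analysed as deposited in R 4.3.3 with edgeR 4.0.16 (filterByExpr, TMM scaling, quasi-likelihood test over the 6 OdG libraries, Benjamini-Hochberg adjustment over all genes tested). A gene was called at an adjusted p under 0.05. The difference from EG1 was an interaction term over both tables. Alternatives used DESeq2 1.42.0, limma 3.58.1 (voom), other scalings and filters, a replicate block and each library left out. The procedure was tested on simulated data. Gene positions and promoter sequences are from RefSeq GRCm38.p6, matched by symbol.

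The comparison and the 52 gene lists were chosen with earlier results of these data known. Named genes are Etl4, the 12 largest rises and falls (called, 5 CPM or more on average in the higher group, libraries that do not overlap), up to 10 genes per direction with at most 10 counts in 1 group and at least 1 CPM in both libraries of the other, 6 per direction by share of the library, by difference from line 2 and by change shared with EG1, and up to 4 genes per list by adjusted p. Some genes that the rule picks are not reported here. Clone-style symbols were passed over, except 4933406M09Rik, which was named after its values were seen.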

Additional observations from a re-analysis of the deposited data

Results flagged for a closer look

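For 21 of the 24 genes with the largest rises and falls in line 1, the effect in OdG (line 1 over WT) differed from the effect in EG1 (KO over WT) in a test of the difference itself, an interaction term fitted with edgeR over both cell lines. The 24 genes were picked by their line 1 change, which is part of this difference, so a pass was likely from the start. Of all 14977 genes in that fit, 33.7% passed. Each value is the line 1 effect minus the EG1 effect on the log2 scale. The line 1 effect was the higher one for Gnpda2 (9.07, adjusted p = 1.3e-17), Guf1 (8.15, adjusted p = 1.3e-22), Tfap2c (4.77, adjusted p = 1.4e-16), Tubb3 (1.66, adjusted p = 5.7e-12), Mmp12 (2.06, adjusted p = 0.0003), Foxd3 (1.88, adjusted p = 3.9e-14), Cyp1a1 (1.53, adjusted p = 1.4e-07), Gnat1 (1.58, adjusted p = 7.6e-08), Ppp1r1a (1.68, adjusted p = 1.4e-08), Tunar (1.83, adjusted p = 1.9e-08) and Lrp2 (1.02, adjusted p = 0.00028). It was the lower one for Cacna1h (-2.79, adjusted p = 3.7e-08), Ndufa4l2 (-3.06, adjusted p = 3.2e-11), Adm (-2.3, adjusted p = 2.5e-06), Grin1 (-2.77, adjusted p = 5.3e-10), Nxph4 (-2.4, adjusted p = 2e-06), Fgfr3 (-2.48, adjusted p = 6.1e-12), Aire (-3.03, adjusted p = 1.6e-18), Hif3a (-2.52, adjusted p = 1.6e-10), Ace (-2.52, adjusted p = 4e-14) and Aifm3 (-2.46, adjusted p = 3.4e-06). The values of Gnpda2 and Guf1 rest on 1 and 6 counts over both OdG WT libraries, so their size depends on the small count added in the fit. Mmp12 was too low in EG1 to be tested there on its own. The difference did not pass for Alb, Entpd4 and Card14. The EG1 change of Guf1 was -0.14 and that of Gnpda2 -0.17, while Cacna1h fell in both (-4.17 in line 1 and -1.38 in EG1), as did Adm (-3.66 and -1.36).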

How the results depend on the processing

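With 2 libraries a group, the calls rest on a spread estimated over 6 OdG libraries, and where 1 library is left out its lone partner is assumed to vary like the other groups. Of 256 genes named by rule, 246 kept direction and side of the threshold under each of the 12 alternatives that tested them, as did 40 of 50 genes named outside it, and no gene of the rule changed sign. The call count of line 1 against WT ran from 5596 (DESeq2) to 7808 (no filter on low counts), and scaling by library totals gave 3107 higher and 4478 lower. With 1 library left out Etl4 stayed between -1.10 and -1.04, and with library totals it was at -1.13.

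A filter at 5 CPM in at least 2 libraries tests fewer genes, and calls of log2 1 or more became 72 higher and 415 lower for line 1 against WT, 137 and 261 for line 1 against line 2, 5 and 15 for EG1, and 105 and 314 for the difference of effects. EG1 calls ran from 638 to 1213 with 1 library left out, 257 to 595 higher and 365 to 618 lower. Sign changes were seen in genes that were not called. With 1 library left out, Gapdh ran from -0.999 to 0.33, Car12 from -1.23 to 0.18 and Epas1 from -0.065 to 0.097. Epas1 was at -0.046 with library totals and -0.021 with the filter at 5 CPM, and the cause was not tested.

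Same-numbered OdG libraries did not deviate together across all genes (correlations of -0.01, 0.01 and 0.03). A correlation over all genes cannot show whether such libraries shared a batch that moved some of them. Alb was higher in replicate 1 than in replicate 2 of WT, line 1 and line 2. With the replicate number as a block 7515 genes were called, 3808 higher and 3707 lower.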
